A study of Mus musculus with 4 samples.

Results

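The 47 genes described here encode enzymes and structural proteins of chromatin. They were taken by name from 21728 protein-coding genes (autosomes and the X chromosome) and were placed in 8 groups. These were SWI/SNF remodellers (12 genes), the NuRD complex (8), other CHD and HDAC enzymes (3), Polycomb repressive complex 2 (PRC2, 4), H3K4 and H3K36 methyltransferases (4), acetyltransferases (3), enzymes of DNA methylation and demethylation (6), and cohesin with CTCF and SATB1 (7). Their promoters and surroundings were examined in DNase-seq of natural killer (NK) cells, innate lymphocytes that kill infected and transformed cells. In DNase-seq, nuclei are digested lightly with DNase I and the cut ends are sequenced, so accessible DNA collects many cuts. The 4 libraries are labelled as biological replicates 1 to 4 and form a single group of primary NK cells. The mice were female, of the F1 cross B6CASTF1/J and 2 months old. No condition was compared. Each library has its own biosample, all share 1 donor identifier, and the labels state neither tissue nor sort, so the SD over the 4 libraries may be partly technical.

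Chromatin remodellers use ATP to slide or evict nucleosomes, and histone modifiers add or remove marks that other proteins read. SWI/SNF complexes open regulatory DNA, NuRD couples remodelling to histone deacetylation, PRC2 writes a repressive methyl mark on histone H3, and cohesin with CTCF folds the genome into loops. In lymphocytes these factors are part of the machinery through which lineage regulators act, and most of their genes are transcribed in many tissues from CpG-rich promoters.

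For each library the authors' longer peak list was used. The signal is the authors' value for a peak. How it scales from library to library is not stated, and read depth is unknown. A gene's promoter signal was the largest peak value within 1 kb of any annotated transcript start, and a region found in at least 3 of 4 libraries is called recurrent. A promoter with such a region is called open. The libraries held 36285 to 69168 peaks, fewest in replicate 4 and most in replicate 3. Of 5 NK markers, Ncr1, Prf1 and Eomes had promoter peaks in all 4 libraries, Tbx21 in 2 and Klrb1c in replicate 3 alone, and their summed signal was 27.4 in replicate 3 against 9.47 to 11.7 in the others. Genes of other cell types were also open in all 4 libraries, namely the B cell genes Pax5 (mean 3.66) and Ebf1 (1.75), the T cell gene Cd3d (6.95) and the myeloid gene Itgam (1.19). The summed signal of the B cell genes Pax5, Ebf1 and Ms4a1 ranged from 4.66 to 7.86 and that of the T cell list from 4.90 to 11.2, all of it from Cd3d. Cd3e, Cd4, Cd8a, Lyz2, Csf1r, Cd14 and 3 erythroid markers had no promoter peak. The part of other cells in the values below was not tested.

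The sequences directly upstream of 4 starts are shown because they span the range from CpG-rich to CpG-poor among these genes. Each is the 120 bases before the annotated start used, 5′ to 3′ on the gene's strand, with CG dinucleotides in capitals (RefSeq sequence of GRCm38.p6, the assembly also called mm10). Over the 47 genes, the observed over expected CpG ratio and the promoter signal were nearly unrelated (Spearman rho -0.10), so these 4 do not stand for a trend. Smarca4 and Mbd3 have 16 and 8 CG in the 120 bases and the highest promoter signals of their complexes. Hdac7 has 3 and no recurrent region. Tet1 has 1, at the annotated start nearest its strongest recurrent region.
Smarca4, chr9:21616049-21616168, plus strand: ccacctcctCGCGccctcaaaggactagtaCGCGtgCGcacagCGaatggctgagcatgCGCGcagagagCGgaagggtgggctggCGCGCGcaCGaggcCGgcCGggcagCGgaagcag
Mbd3, chr10:80399551-80399670, minus strand: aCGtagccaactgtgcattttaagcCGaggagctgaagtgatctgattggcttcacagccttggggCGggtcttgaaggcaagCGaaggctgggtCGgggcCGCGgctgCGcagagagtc
Hdac7, chr15:97844503-97844622, minus strand: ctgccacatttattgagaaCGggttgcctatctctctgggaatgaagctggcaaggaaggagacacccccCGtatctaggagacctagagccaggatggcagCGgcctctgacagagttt
Tet1, chr10:62865305-62865424, minus strand: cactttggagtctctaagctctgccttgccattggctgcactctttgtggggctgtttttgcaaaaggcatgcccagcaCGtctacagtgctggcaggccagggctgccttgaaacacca

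Nearly all of the 47 promoters were open in NK cells. A recurrent promoter region was found at 45 of the 47 genes, against 54.7% of all protein-coding genes. At least 2 separate recurrent promoter regions were found at 28 of the 47, against 20.7% of all genes. A run of at least 6 bases covered by the authors' footprints in at least 3 libraries lay in the promoter windows of 42 of the 47, against 47.3%. In cells measured in bulk, a site open in fewer cells and a site less open in each cell cannot be told apart. Library by library, a promoter peak was present at 47, 46, 46 and 45 of the 47 in replicates 1 to 4, against 55.4%, 56.8%, 59.1% and 54.2% of all genes. One region was present in all 4 libraries at 44 of the 47, against 51.7%. The 47 genes have a median of 7 annotated starts, against 3 over all genes, which gives them more windows in which a peak can fall. With the 5′ end of the gene record as the only start, 41 of the 47 were open, against 50.3% of all genes.

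CpG-rich promoters were usual among them. Within 501 bases around the start, 44 of the 47 had an observed over expected CpG ratio of at least 0.6, against 52.7% of all genes. The start taken was the one nearest the strongest recurrent region, or the 5′ end of the gene record where there was none. Of these 44, 43 were open, against 84.9% of all CpG-rich genes. The 3 CpG-poor genes were Satb1, Tet1 and Hdac7, of which 2 were open, against 21.1% of all CpG-poor genes. For Tet1 the start taken lay 43692 bases inside the record, so its ratio does not describe the record's 5′ end. Ranked among all genes within a library, the promoter signal of the 47 had a median percentile of 78.6 ± 1.14 (SD, n = 4), against 71.7 ± 0.225 for all CpG-rich genes. Within the 47, the CpG ratio and the signal were nearly unrelated (Spearman rho -0.10 over 47 genes, against 0.70 over all 21728), which is across genes that share the same libraries. Without the X-linked genes Smc1a and Stag2, the median percentile was 78.7 ± 1.08.

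Few of the strong promoter regions were shared with a neighbouring protein-coding gene. Among the 45 open promoters the strongest region also lay within 1 kb of another such gene at 4, against 22.2% of open promoters of all genes. These 4 were Pbrm1 with Gnl3, Hdac3 with Rell2, Ctcf with Agrp, and Smc1a with Ribc1. At these 4 genes the signal cannot be assigned to either member of the pair. Genes that are not protein-coding were left out of this count. Their starts lay within 1 kb of further strongest regions, among them those of Smc3, Ep300 and Kmt2a.

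**Figure D1:**
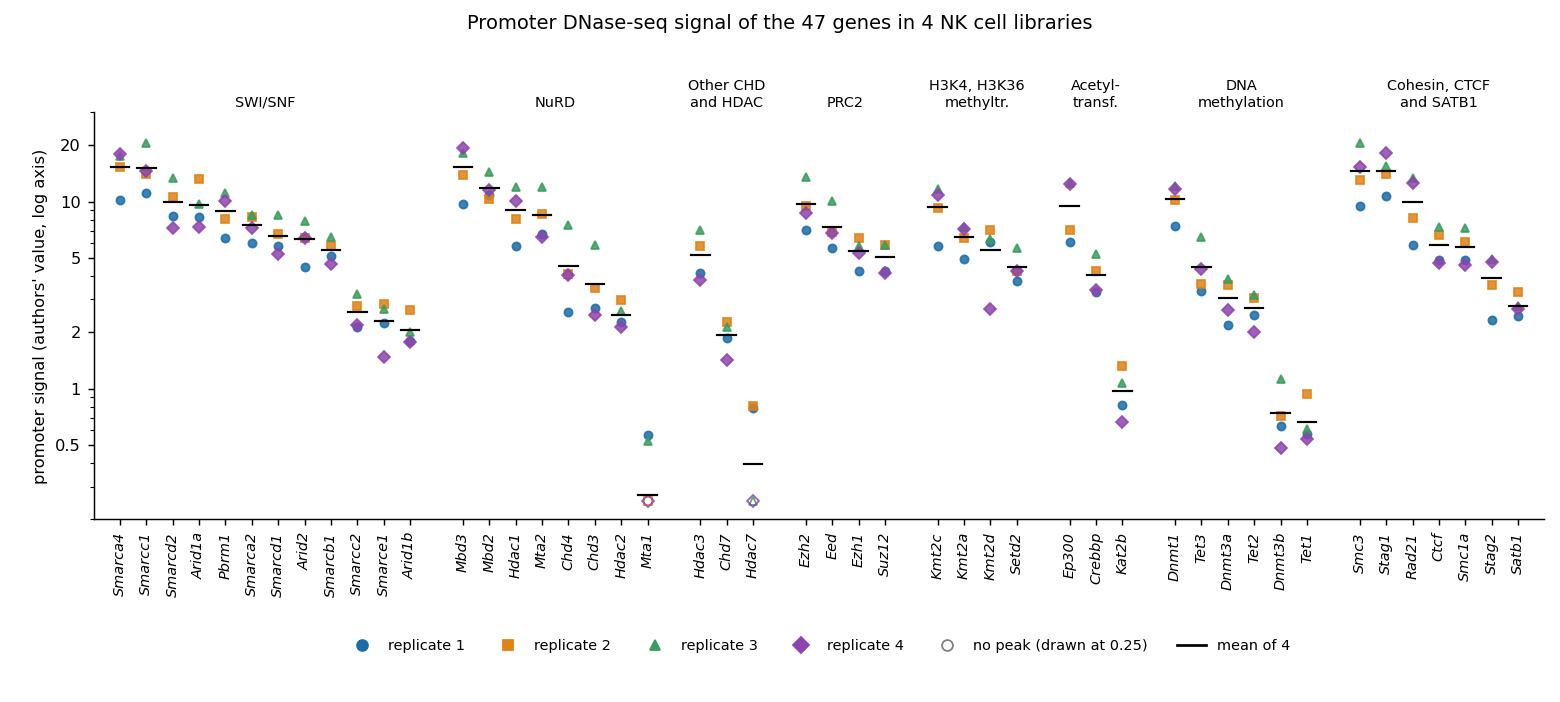
Promoter DNase-seq signal (authors' value, log axis) of each of the 47 genes in the 4 libraries, grouped by complex and ordered by mean. Filled points are libraries, black lines are means with a library without a peak counted as 0, and open points mark libraries without a peak, which occur only at Mta1 and Hdac7. Means of open genes run from 0.664 at Tet1 to 15.3 at Mbd3.

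SWI/SNF genes had the highest median promoter percentile of the 8 groups, 83.7 ± 1.92 (SD, n = 4), and all 12 were open. With only the 5′ end of the gene record, PRC2 genes were highest at 81.9, and SWI/SNF genes had 81.5. Smarca4 encodes BRG1, an ATPase of the complex. Its promoter signal was 10.3, 15.2, 17.6 and 17.9 in replicates 1 to 4, with the region at chr9:21615961-21616200 spanning the start. This was the second highest mean among the 47 genes (15.3 ± 3.54), above 97.8% of all genes averaged over the libraries. Smarca2, encoding the alternative ATPase BRM, averaged 7.48 ± 1.14 and had 4 recurrent promoter regions.

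The core subunits spanned a wide range. Smarcc1 (BAF155), a scaffold subunit, had 11.1, 14.0, 20.6 and 14.6, and its partner paralogue Smarcc2 (BAF170) had 2.14, 2.78, 3.19 and 2.19. The lowest Smarcc1 library exceeded the highest Smarcc2 library. The Smarcc1 signal came from a start inside the gene, 14272 bases downstream of the gene's 5′ end. At the 5′ end itself Smarcc1 had 3.26, 4.41, 4.30 and 1.96. Smarcd2 averaged 9.93 ± 2.73, Smarcd1 6.56 ± 1.43 and Smarcb1 5.51 ± 0.799, while Smarce1, a DNA-bending subunit, averaged 2.30 ± 0.609.

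The ARID subunits separate the BAF and PBAF forms of the complex. Arid1a, a subunit of BAF, had 8.28, 13.1, 9.66 and 7.31, at a start 2787 bases inside the gene record, and was highest in replicate 2. Arid1b, which replaces Arid1a in some BAF complexes, had 1.80, 2.63, 2.02 and 1.77, the lowest of the SWI/SNF genes. Both Arid1a and Arid1b had extended promoters, with 5 recurrent regions at Arid1a and a region 1740 bases wide at Arid1b. The PBAF subunits Arid2 and Pbrm1 averaged 6.30 ± 1.41 and 8.91 ± 2.12. The strongest Arid2 region was centred 758 bases upstream of its start.

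NuRD genes ran from the highest to the lowest mean of all 47 genes. Mbd3, the methyl-CpG-binding-domain subunit, had 9.72, 13.9, 18.2 and 19.4, a mean of 15.3 ± 4.41. Its paralogue Mbd2, which binds methylated DNA, averaged 11.8 ± 1.81. The deacetylase gene Hdac1 averaged 8.97 ± 2.64, and Hdac2 was the lowest open NuRD gene with 2.27, 2.98, 2.59 and 2.12. The ATPase genes Chd4 and Chd3 averaged 4.55 ± 2.08 and 3.62 ± 1.54, both highest in replicate 3.

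The MTA genes, which encode scaffolds of NuRD, differed most. Mta2 averaged 8.43 ± 2.57 and was open in all 4 libraries. Mta1 had peaks of 0.564 in replicate 1 and 0.523 in replicate 3, and none in replicates 2 and 4, so it was not recurrent. In the promoter windows of Mta1, 126 bases in replicate 1 and 562 in replicate 3 had an authors' false discovery rate under 0.05, and 0 in the others, and 0 bases were under 0.001 in any library. The Mta1 promoter is CpG-rich (ratio 1.04) and is the only CpG-rich one of the 47 that was not open.

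Hdac7 was the other gene without a recurrent promoter region. This class IIa deacetylase had weak peaks of 0.787 and 0.806 in replicates 1 and 2 and none in replicates 3 and 4. No library had a peak at the 5′ end of its gene record, and the ratio of CpG observed to expected there was 0.27. Its locus did hold strong distal regions, described further on. With 1 library left out and a region in 2 of the other 3 taken as recurrent, Mta1 was open without replicate 2 or 4 and Hdac7 without replicate 3 or 4. In the same group, Hdac3, the deacetylase of the NCoR and SMRT corepressors, had 4.17, 5.78, 7.04 and 3.81, and Chd7, a remodeller known in human from CHARGE syndrome, had 1.86, 2.28, 2.14 and 1.43. The value in replicate 3 came from a peak at another start, 149916 bases inside the gene, and the region at the gene's 5′ end, 923 bases wide, had 1.99 there.

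All 4 PRC2 core genes were open, at similar signals, with a median percentile of 80.6 ± 1.77. The methyltransferase gene Ezh2 had 7.07, 9.53, 13.5 and 8.67. Its paralogue Ezh1 averaged 5.42 ± 0.881. Eed, which reads the mark that PRC2 writes, averaged 7.35 ± 1.90, and Suz12, a core scaffold, was lowest with 4.28, 5.86, 5.84 and 4.15. No PRC2 gene was below a mean of 5.03.

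The H3K4 and H3K36 methyltransferase genes had a median percentile of 80.02 ± 2.82. Kmt2c was highest, with 5.78, 9.26, 11.7 and 10.8, and Setd2, which methylates H3K36, was lowest with 3.75, 4.27, 5.67 and 4.28. Kmt2a had 4.96, 6.37, 7.29 and 7.14. Kmt2d had 6.06, 7.06, 6.29 and 2.66, with replicate 4 far below the others. The strongest regions of Kmt2c and Kmt2d were centred 877 and 936 bases upstream of the start and lay within 1 kb of a start of the noncoding genes 4831440E17Rik and 5730414N17Rik. With a window of 500 bases the group's median percentile was 64.7.

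Acetyltransferase genes were lower, with a median percentile of 70.6 ± 0.895 over 3 genes. Ep300 (p300) had 6.08, 7.09, 12.5 and 12.4, high in replicates 3 and 4, and its paralogue Crebbp (CBP) averaged 4.05 ± 0.913. Kat2b (PCAF) had 0.823, 1.33, 1.07 and 0.663, the third lowest mean of the open genes. Its region was 1100 bases wide and mostly downstream of the start. A region just outside the 1 kb window, 1.54 kb into the gene, had 2.29, 3.08, 3.52 and 2.10, above the Kat2b promoter value in each library.

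Genes of DNA methylation had a median percentile of 64.3 ± 1.33, and were split. Dnmt1, the maintenance methyltransferase, had 7.45, 10.2, 12.2 and 11.7. Dnmt3a, a de novo methyltransferase, had 2.20, 3.56, 3.85 and 2.63, and Dnmt3b, the other one, had 0.635, 0.715, 1.12 and 0.481. The replicate 1 value of Dnmt3b came from an adjacent peak found in 2 libraries. Its recurrent region had no peak in replicate 1. No library of Dnmt3b reached the lowest Dnmt3a library. The TET genes encode dioxygenases that oxidise methylcytosine. Among them Tet3 averaged 4.45 ± 1.43 and Tet2 2.69 ± 0.542, while Tet1 was the lowest open gene of all 47 with 0.576, 0.936, 0.606 and 0.538.

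Every core cohesin gene was open, and the group's median percentile was 79.0 ± 1.41. Smc3, one of the SMC arms of the ring, had 9.46, 13.1, 20.5 and 15.4. Its partner Smc1a averaged 5.69 ± 1.21 and the kleisin gene Rad21 9.96 ± 3.57. Of the STAG subunits, which bind the ring, Stag1 averaged 14.6 ± 3.09 and the X-linked Stag2 3.90 ± 1.21. Ctcf, the insulator protein that halts cohesin, averaged 5.88 ± 1.29. Satb1, a chromatin organiser of T lineage cells, was lowest, with 2.43, 3.27, 2.77 and 2.66. Satb1 also had the most recurrent promoter regions of the 47 genes, 6, which together covered 3104 bases, and Stag2 had 5.

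The promoter of Smc3 is shown because 10 recurrent footprints lay in its promoter windows and its strongest region is free of annotated UTR. The region is chr19:53599921-53600220 on the plus strand, and capitals mark bases in a recurrent footprint.
Smc3: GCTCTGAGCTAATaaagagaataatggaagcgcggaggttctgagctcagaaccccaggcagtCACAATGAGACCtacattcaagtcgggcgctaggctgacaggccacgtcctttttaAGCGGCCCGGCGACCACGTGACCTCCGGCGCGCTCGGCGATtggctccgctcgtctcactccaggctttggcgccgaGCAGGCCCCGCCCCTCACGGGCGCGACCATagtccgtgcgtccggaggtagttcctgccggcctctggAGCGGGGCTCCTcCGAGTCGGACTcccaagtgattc
One footprint in this region holds the E-box CACGTG, read by basic helix-loop-helix factors, and another holds the GC box GGGGCGGGG on the minus strand.

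**Figure D2:**
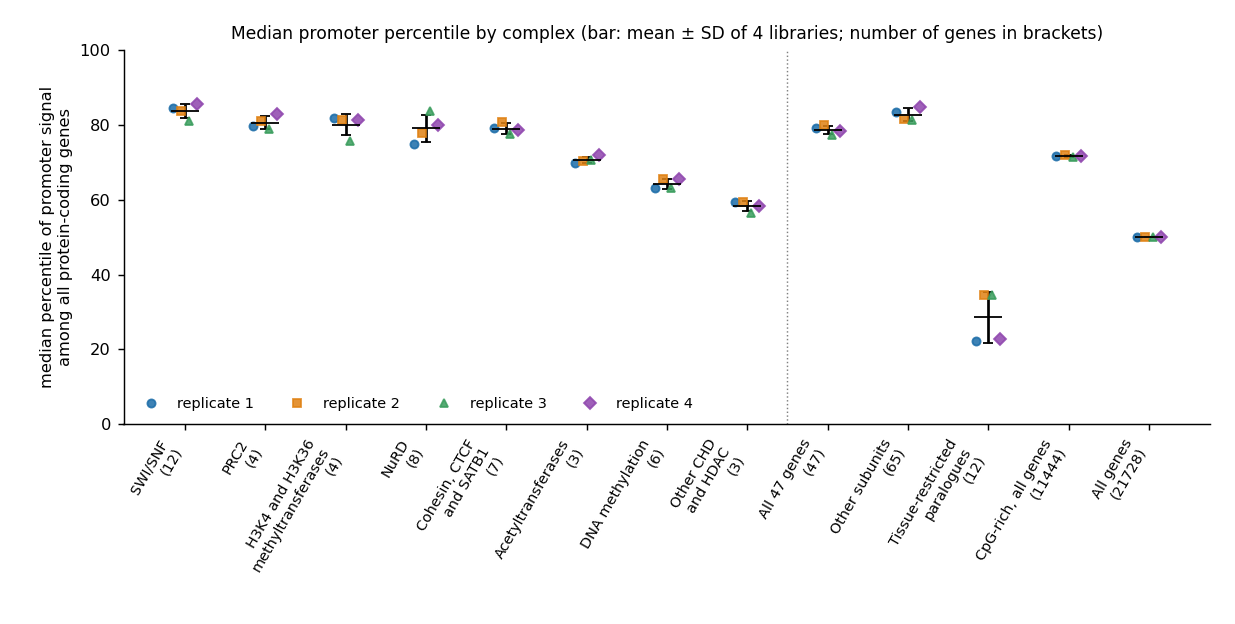
Median percentile of promoter signal among all protein-coding genes (0 to 100) for each complex, left of the dotted line, and for comparison sets, right of it. Points are the 4 libraries and bars the mean ± SD. The set labelled other subunits also holds other remodellers, deacetylases and acetyltransferases. In each library acetyltransferases, DNA methylation genes and other CHD and HDAC genes take the 3 lowest places among the complexes, in that order from higher to lower.

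Across complexes, the order at the lower end was the same in each of the 4 libraries. Acetyltransferase genes had the sixth highest median percentile, DNA methylation genes the seventh, and other CHD and HDAC genes (58.4 ± 1.34) the lowest. The other 5 groups lay between 79.0 and 83.7 and their order differed between libraries. SWI/SNF was highest in replicates 1, 2 and 4, and NuRD in replicate 3 (83.6, against 81.0 for SWI/SNF). NuRD varied most, from 74.8 in replicate 1 to 83.6 in replicate 3. These groups hold 3 to 12 genes, genes are not replicates, and no test between groups was made. The order also turned with the setting. With a window of 500 bases, the methyltransferase genes (64.7) lay below the acetyltransferase genes (71.1) and the DNA methylation genes (65.0). When only the 5′ end of the gene record was used, DNA methylation genes (44.8) lay below other CHD and HDAC genes (61.5).

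A further 65 genes, on 8 lists, were nearly all open. They were other subunits or partners of these complexes, and other remodellers, deacetylases and acetyltransferases. Of the 65, 63 had an open promoter (96.9%, against 54.7% of all genes), and the median percentile of the 65 was 82.7 ± 1.62. The 2 others, named after their values were seen, were Hdac9 and Kat2a. A ninth list held 12 paralogues known mainly from germ cells, neurons or other restricted tissues. Of these, 5 were open (41.7%, against 54.7% of all genes), and the median percentile of the 12 was 28.6 ± 6.90. These 5 were Dpf3, a BAF subunit known from heart and brain (8.94 ± 2.20), Ss18l1, a neuronal BAF subunit (3.48 ± 0.998), Stag3, a meiotic cohesin subunit (3.22 ± 0.565), Epop, a PRC2 partner (2.62 ± 0.525), and Chd5, a neuronal remodeller (0.617 ± 0.423). The meiotic cohesin gene Smc1b, the CTCF paralogue Ctcfl, and Dnmt3l, Rad21l and Actl6b had no promoter peak in any library.

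Of the 45 open genes, 6 (13.3%) had their strongest region at a start more than 1 kb from the 5′ end of the gene record. The share over all genes was not computed. The 47 genes have more annotated starts (median 7, against 3 over all genes), so the count is not read as a trait of them. Stag1 is the clearest case. Its region at chr9:100643221-100643660 spans a start 45650 bases inside the record and had 10.7, 14.0, 15.5 and 18.1, while no library had a peak at the 5′ end of the record. The Dnmt1 region lay 7043 bases inside, and the record's 5′ end had 0.483 and 0.623 in replicates 2 and 3 and no peak in replicates 1 and 4. Tet3 (2692 bases inside) and Tet1 (43692 bases inside) likewise had no peak at the record's 5′ end in any library. Smarcc1 and Arid1a were open at both places, with the mean at the record's 5′ end 23.1% and 64.4% of the strongest.

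Pairs of related genes, mostly paralogues and also the cohesin partners Smc3 and Smc1a, were compared within each library, since a ratio there does not depend on the library's scale. Of 16 pairs, 15 had peaks of both genes in all 4 libraries, and 12 of these had the same direction in 4 of 4 libraries. The exact two-sided sign-flip permutation test over 4 libraries cannot give p below 0.13, and each of the 12 had p = 0.13 (0.16 after Benjamini-Hochberg adjustment over the 15 pairs), so no pair passes 0.05.

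The largest ratio was that of Smarcc1 over Smarcc2, log2 2.53 ± 0.211 (SD, n = 4), with 2.37, 2.33, 2.69 and 2.74 in replicates 1 to 4. It rests on the internal Smarcc1 start, since with the 5′ ends of the gene records alone the ratio was 0.39. Arid1a over Arid1b came next at 2.21 ± 0.117, with 2.20, 2.32, 2.26 and 2.05 in the libraries, and was 1.59 at the record 5′ ends. Dnmt3a over Dnmt3b was 2.09 ± 0.351, with 1.79, 2.32, 1.78 and 2.45. In replicate 1 it uses the Dnmt3b peak beside the recurrent region. With the shorter peak list, or an equal number of peaks per library, it could not be computed for want of a peak in every library. In these 3 pairs the first gene was higher in 4 of 4 libraries.

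Ratios of the other pairs were smaller. Tet2 over Tet1 was 2.03 ± 0.290, Hdac1 over Hdac2 1.81 ± 0.478, Smc3 over Smc1a 1.33 ± 0.365 and Smarca4 over Smarca2 1.01 ± 0.239, each in 4 of 4 libraries. Ezh2 over Ezh1 was 0.81 ± 0.283 and Tet3 over Tet2 0.70 ± 0.440, again in 4 of 4. The second gene was higher in 4 of 4 libraries for Stag2 over Stag1 (-1.94 ± 0.228), Crebbp over Ep300 (-1.19 ± 0.508) and Smarcd1 over Smarcd2 (-0.58 ± 0.0976). The signals of Stag1, Tet3 and Tet1 came from internal starts, and none of these genes had a peak at the record 5′ end. At the record 5′ ends Stag2 was therefore above Stag1, and Tet2 above Tet3 and Tet1. Chd4 over Chd3 (0.31 ± 0.322), Mbd3 over Mbd2 (0.33 ± 0.374) and Kmt2d over Kmt2c (-0.81 ± 0.897) changed direction in 1 library, replicate 1. For these 3 pairs p was 0.25 before and after adjustment, in the same exact permutation test.

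**Figure D3:**
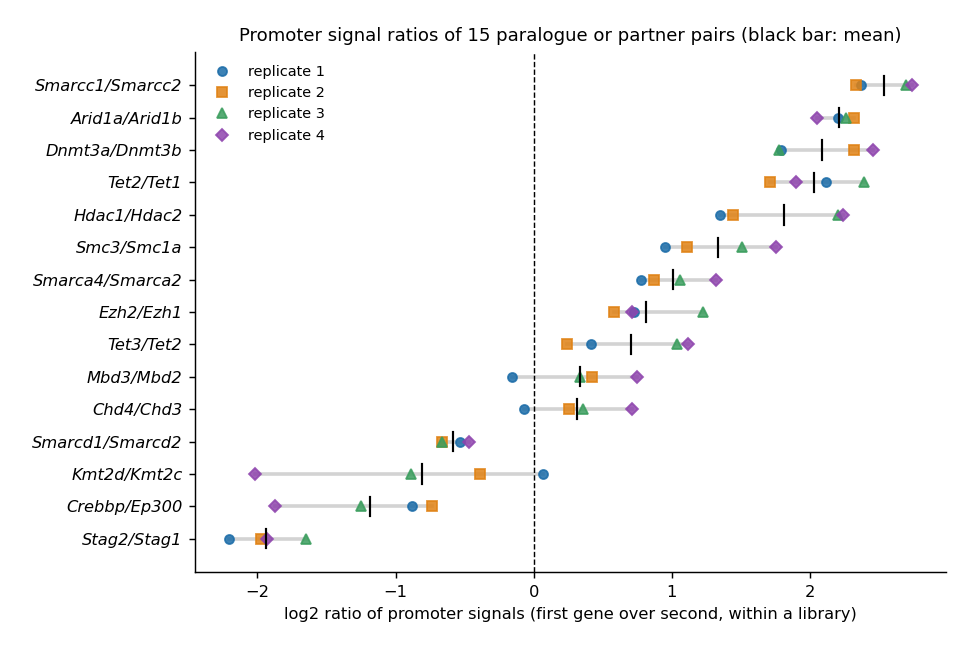
Log2 ratio of the promoter signals of 15 pairs, first gene over second, in the 4 libraries. Points are libraries, grey bars run from the lowest to the highest library, and black marks are means. Smarcc1/Smarcc2, Arid1a/Arid1b and Dnmt3a/Dnmt3b lie highest, between 1.78 and 2.74, and Stag2/Stag1 lies lowest, between -2.21 and -1.65.

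Libraries differed in scale, and these promoters followed it. Of the 45 open genes, 31 had their highest signal in replicate 3, against 79.2% of all genes with a peak in all 4 libraries. The lowest signal was in replicate 1 at 25 genes and in replicate 4 at 19. After division by the library's median over open promoters, Smc1a (1.16 to 1.23), Crebbp (0.831 to 0.889), Smarcd1 (1.32 to 1.46) and Ctcf (1.17 to 1.30) were nearly the same in all 4 libraries. Ep300 varied most, with 1.53, 1.40, 2.01 and 3.26 in replicates 1 to 4, followed by Rad21 with 1.47, 1.61, 2.13 and 3.30. Kmt2d ran the other way, with 1.53, 1.40, 1.01 and 0.699. These genes were chosen after their values were seen.

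**Figure D4:**
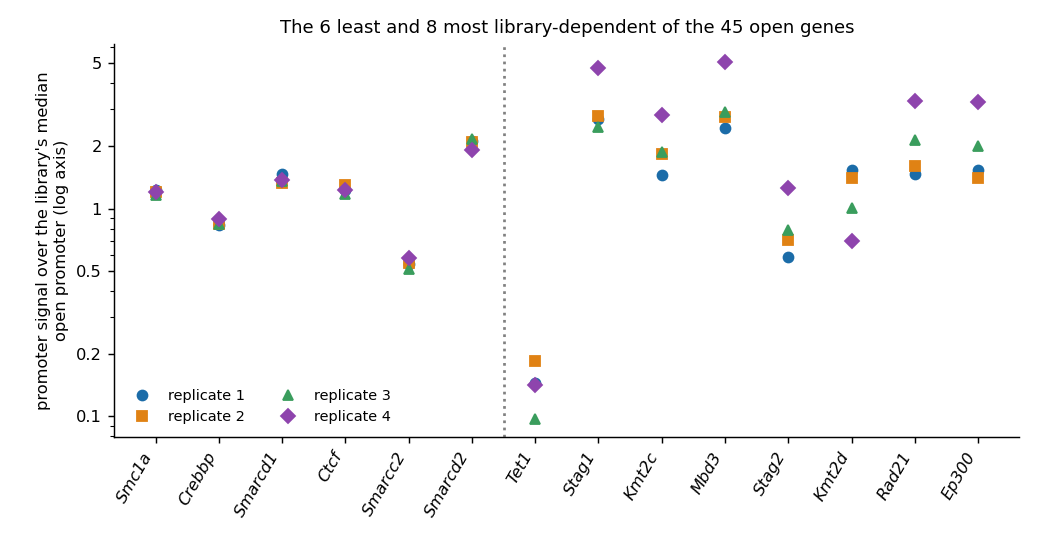
Promoter signal divided by the median signal of open promoters in the same library (log axis), for the 6 least and the 8 most library-dependent of the 45 open genes, split by the dotted line and ordered by the ratio of highest to lowest library. Replicate 4 is the highest library at Stag1, Kmt2c, Mbd3, Stag2, Rad21 and Ep300 and the lowest at Kmt2d.

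Footprints, stretches protected from DNase I within open DNA, were called by the authors in each library. The genes with the most recurrent footprints in their promoter windows were Stag1 (13), Smarcc1 and Smarca2 (11 each) and Mbd3 and Smc3 (10 each). These counts are not corrected for the length searched, which grows with the number of annotated starts. It ran from 2238 bases at Rad21 to 36807 at Smarca2, with 16330 at Stag1 and 4679 at Mbd3. No recurrent footprint was found at Mta1, Hdac7, Kat2b, Dnmt3b and Tet1. Genes with a higher promoter signal had more recurrent footprints (Spearman rho 0.72 over the 47 genes, against 0.91 over all 21728), as a description across genes that share the same libraries and depth.

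Motifs were searched on both strands in the 301 bases at the centre of each gene's strongest promoter region, and a match was called footprinted when at least 80% of its letters lay in recurrent footprints. The motif of NRF1, an activator of respiratory chain and growth genes, written GCGCATGCG, was present at 5 of the 45 open promoters (11.1%), against 4.23% of all 11881 open promoters, and was footprinted at the same 5 (11.1%, against 3.84%). The GC box of SP and KLF factors, GGGGCGGGG, was footprinted at 9 (20%, against 13.99%). The ETS motif CCGGAAG was present at 5 (11.1%, against 21.4%) and footprinted at 3 (6.67%, against 7.12%). The RUNX motif TGTGGTT was present at 0 (against 3.78%) and the T-box motif AGGTGTGA at 0 (against 0.707%). Matches describe letters in these windows only.

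The 5 footprinted NRF1 matches are shown in 30 bases each, with the match in capitals, because the same motif recurs in 4 different complexes. The motif nearly equals its own reverse complement, and matches on both strands of one site were counted once per promoter.
Smarcc1, chr9:110131897-110131926, plus strand: ccggcgtgctGCGCATGCGtacgcccgctc
Smarcb1, chr10:75921583-75921612, plus strand: cgccctcggtGCGCATGCGtggagaagctg
Eed, chr7:89981227-89981256, plus strand: acctgcaggtGCGCATGCGctgaggcgtat
Kmt2c, chr5:25499620-25499649, plus strand: ggctgagtccGCGCATGCGccccgcgctac
Dnmt1, chr9:20952931-20952960, plus strand: cgaagggagtGCGCATGCGcgcaacggagg
At these 5 genes the mean promoter signal ranged from 5.51 at Smarcb1 to 15.1 at Smarcc1. At Smarcc1 and Dnmt1 the match lies at the internal start, not at the 5′ end of the record.

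Away from promoters, the loci of the 47 genes (gene body and 25 kb on each side) held 123 distal recurrent regions, meaning regions more than 1 kb from every protein-coding transcript start. They were 61 in introns, 28 upstream, 29 downstream, 3 in coding exons and 2 in untranslated exons. The median was 2 regions per gene, against 1 over all genes. At least 1 region was present at 35 of the 47, against 54.7% of all genes, and the other 12 had none. At least 5 regions were present at 7 of the 47, against 6.35% of all genes. The loci of the 47 are longer, with a median of 103 kb against 67.4 kb. Against genes of like locus length, in 20 bins, 26 of the 47 had more regions than their bin's median, against 39% of all genes. Per 100 kb of locus the density was 2.02, against 1.35 over all genes. With an equal number of the strongest peaks taken from each library, 68 distal regions were found.

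Complexes differed in where distal regions lay. Pooled over the group, other CHD and HDAC loci had 4.27 regions per 100 kb, NuRD 3.02, SWI/SNF 2.59, DNA methylation genes 1.92 and the methyltransferases 1.90. Acetyltransferase loci had 1.32, PRC2 loci 0.815 and cohesin loci 0.543, below the 1.35 over all genes. Single genes weigh on the pooled values, as Arid1b held 19 of the 45 SWI/SNF regions and Chd7 11 of the 17 in its group. As a median over genes, density was 2.41 for the methyltransferases and 1.78 for SWI/SNF, the reverse of their pooled order. Of the cohesin group, Smc1a, Stag1, Stag2, Rad21 and Satb1 had no distal region. The signal of a gene's promoter and its number of distal regions were nearly unrelated (Spearman rho -0.14 over the 47 genes, against 0.32 over all genes, across genes that share the same libraries).

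Arid1b had the most distal regions, 19 in a locus of 403 kb. Of these, 18 lay in introns, their mean signals ran from 0.606 to 2.72, and the strongest lay 13.0 kb into the gene with 1.60, 2.27, 4.37 and 2.63. Chd7 came second with 11, of which 10 were intronic. The strongest of these, 121 kb into the gene, had 4.79, 6.07, 13.5 and 6.63, above the Chd7 promoter in each library. Arid1a had 9, from 0.672 to 2.46, and 4 of them lay downstream of the gene. Kmt2a had 5, the strongest in a coding exon with 2.03, 1.93, 2.13 and 0.923. Arid2 had 5, the strongest 1.91 kb upstream with 2.33, 4.13, 5.52 and 4.05.

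Dnmt3a had 7 distal regions, with the 2 strongest upstream of the gene. The one 14.0 kb upstream, at chr12:3791881-3792080, had 6.50, 7.02, 11.2 and 5.63, against 2.20, 3.56, 3.85 and 2.63 at the Dnmt3a promoter. It was higher than the promoter in 4 of 4 libraries and held 5 recurrent footprints. The one 24.3 kb upstream, inside the neighbouring gene Dtnb, averaged 5.27 ± 1.41.

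Hdac7 had 5 distal regions although its promoter was not open. A region in its intron, 19.3 kb into the gene at chr15:97825101-97825380, had 4.62, 5.78, 9.69 and 6.30. Another, 5.22 kb upstream at chr15:97849541-97849900, had 3.57, 3.84, 4.02 and 1.67 and held 4 recurrent footprints. Both were present in 4 of 4 libraries.

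**Figure D5:**
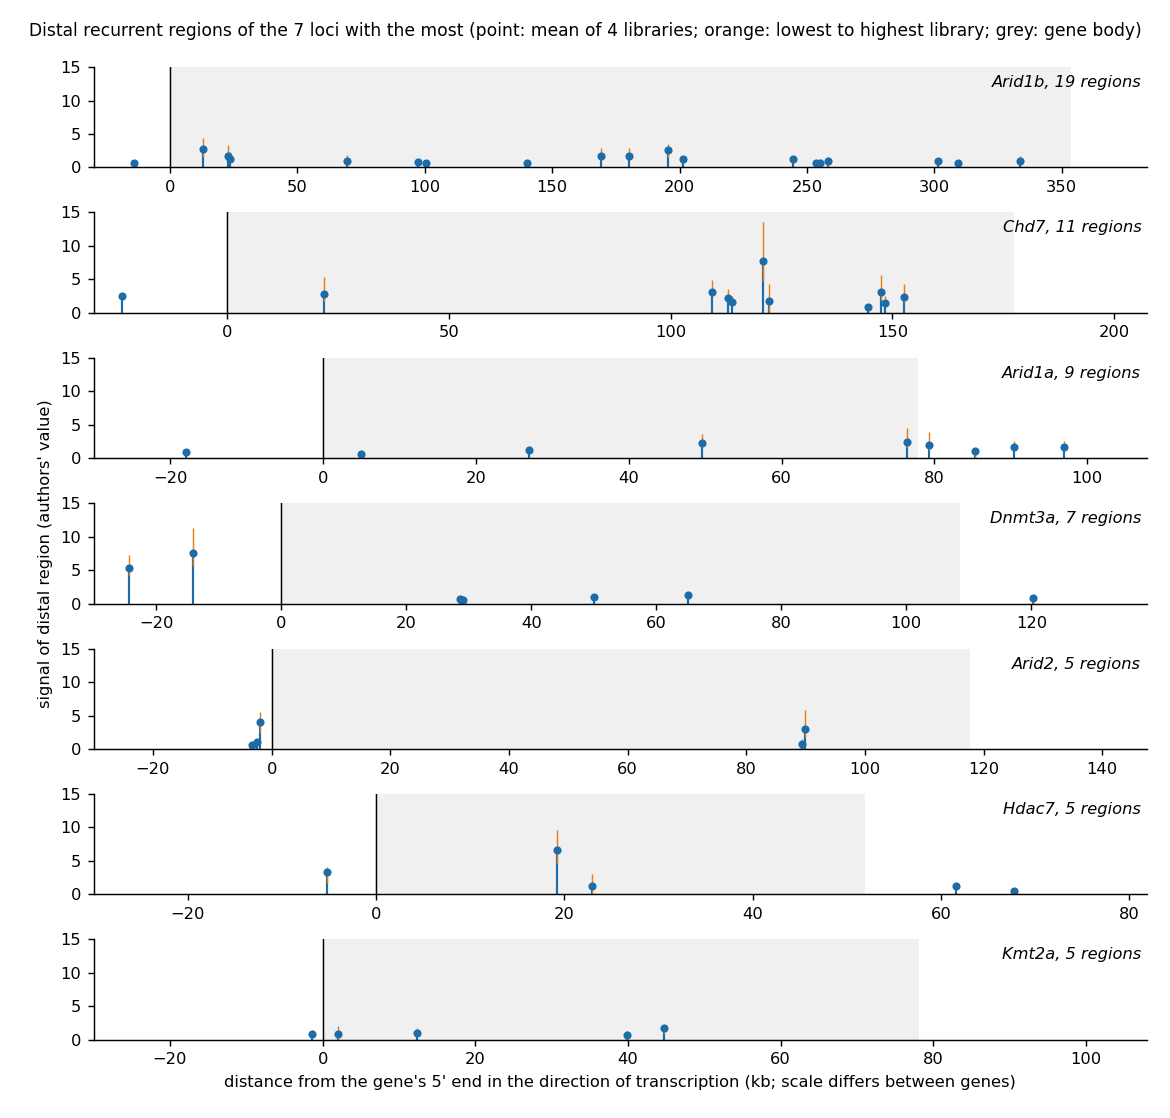
Signal of distal recurrent regions (authors' value) against distance from the gene's 5′ end in kb, for the 7 loci with the most such regions. Points are means of 4 libraries, orange lines run from the lowest to the highest library, and grey marks the gene body. Arid1b has the most regions, with means from 0.606 to 2.72, 10 of the 11 of Chd7 lie in its introns, and those of Dnmt3a are strongest upstream.

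The strongest distal region of any of the 47 loci lay 33.7 kb from the Smarcd1 start, at chr15:99735661-99736080 inside the gene Cers5. It had 52.0, 52.5, 33.2 and 46.9 in replicates 1 to 4, a mean of 46.2 ± 8.99, the fourth highest of all 20444 distal recurrent regions. It was lowest in replicate 3, whereas 78 of the 88 distal regions found in all 4 libraries were highest in replicate 3, and it held no recurrent footprint. Other strong regions lay 14.0 kb upstream of Ctcf (5.80 ± 1.13, inside Agrp) and 41.9 kb from the Hdac1 start (5.57 ± 2.06, downstream of the gene). Of the 123 regions, 29 were missing in replicate 4 and 0 in replicate 3, the libraries with the fewest and the most peaks.

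Among the motifs searched, that of CTCF had the most footprinted matches at these distal regions. It was footprinted at 10 of the 123 (8.13%), against 8.82% of all distal recurrent regions, and at 1 of the 45 promoters (2.22%, against 2.58%), that of Stag1. The sites at Stag1, Ctcf, Dnmt3a, Hdac7 and Smc3 are shown, with the match in capitals, because they lie at genes whose distal or internal regions are described above or that encode CTCF and its partner cohesin.
Stag1, chr9:100643564-100643593, plus strand: gcagcgcggCCAGCAGAGGGCggtcgggac
Ctcf, chr8:105622557-105622586, plus strand: gagctgtcgCCACCAGGGGGCagcagaact
Dnmt3a, chr12:3781731-3781760, plus strand: tgggactggCCGCCAGGGGGCgcactgcct
Hdac7, chr15:97849822-97849851, minus strand: aacatctggCCACCAGAGGGCgtgtgagcc
Smc3, chr19:53579105-53579134, minus strand: tcatcattgCCACTAGAGGGCgcttcaaag
The Stag1 match lies at its internal start. The Ctcf match is in the region 14.0 kb upstream, the Dnmt3a match in the one 24.3 kb upstream and the Hdac7 match in the one 5.22 kb upstream. The region with the Smc3 match, 21.3 kb upstream, averaged 2.04 ± 0.566.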

How the data were processed

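DNase-seq peaks, footprints and false discovery rates of 4 NK cell libraries were used. Per the deposited readmes, the authors derived the files separately for each library from alignments on mm10. The callers are not named in the files or labels. The deposited peak signal is the authors' value per peak, with no stated unit. The deposited false discovery rates were used as p-value like measures (bases under 0.05 are listed), and the authors' footprints carry a constant 0.01. Read depth is not in the files, so no counting interval is given.

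Gene starts came from GENCODE vM21 (GRCm38.p6, the assembly of mm10) and sequences from the RefSeq copy. Overlapping or touching peaks were merged. Analyses used Python 3.11.15, numpy 2.4.6, pandas 2.3.3 and scipy 1.17.1, and the counting steps were tested on simulated data. Values of every library are given for the highest and lowest open gene of each complex, each gene without an open promoter, the genes with the most distal regions (7 with ties) and the 3 pairs with the largest ratio. The genes, lists and tests were chosen with earlier results of these data known. Motifs and figures were settled after the files were read. Alternatives were the shorter peak list, a window of 500 bases, the gene record's 5′ end only, recurrence in 4 or 1 libraries, equal peak numbers, the gene body only, distal regions defined from starts of every biotype, and leaving out each library.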

Additional observations from a re-analysis of the deposited data

Results flagged for a closer look

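The median promoter percentile of the H3K4 and H3K36 methyltransferase genes was flagged because 1 library stood far from the others. It was 81.7, 81.2, 75.8 and 81.3 in replicates 1 to 4. The gap of replicate 3 to the nearest library was 0.919 of the whole range, above Dixon's critical value for 4 samples. Of 55 sets of 4 values checked (47 promoters and 8 groups), 1 was flagged, and chance flags about 1 in 20.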

How the results depend on the processing

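No paired analysis was possible because the libraries form a single group. The count of open promoters was 41 to 47 of 47 and that of promoters with a recurrent footprint 38 to 47 under every alternative run for them. Leaving out 1 library (recurrent then means 2 of 3) gave 45 to 47 open genes, 42 with a footprint, a median percentile of 78.2 to 79.1 and 127 to 151 distal regions, and the median of cohesin loci was 0 to 1. 

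A window of 500 bases gave median percentiles of 76.9 for the 47 genes and 64.7 for the methyltransferases. With the record 5′ end only, SWI/SNF had 81.5, other CHD and HDAC genes 61.5, acetyltransferases 72.7 and DNA methylation genes 44.8. Recurrence in 1 library gave 269 distal regions, with a median of 4 per locus. By group the medians were 4 for SWI/SNF, acetyltransferases and DNA methylation, 5 for NuRD, 11 for other CHD and HDAC, 2 for PRC2 and cohesin, and 5.5 for methyltransferases. Equal peak numbers, 25037 per library, gave 68 regions, with medians of 1 for SWI/SNF and methyltransferases and 0.5 for DNA methylation. The gene body alone gave 66, with medians of 0 for the 47 genes, 0 for SWI/SNF and 1 for NuRD. No pair ratio that could be computed changed sign, and of 111 such values under alternatives 3 moved by over 1 SD. A ratio was not computed where either gene lacked a peak in a library. With the record 5′ end only, Stag1 and Tet3 had no peak in any library. Their partners Stag2 (mean 3.90) and Tet2 (2.69) were higher there, opposite to the reported direction.

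With 4 libraries the exact permutation test cannot give p below 0.13. Depth is unknown, so the precision of weak peaks such as those of Mta1 and Hdac7 could not be computed.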
